A study of Mus musculus with 6 samples.

Results

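Cd163l1 and 7 further genes of the IL-17 lymphocyte axis were followed in lung RNA of wild-type (WT) and ISM1-/- mice. Cd163l1, also named Scart1, encodes a scavenger receptor of gamma-delta T cells. The other genes were Sox13, Il23r, Il17a, Il17re, Il17ra, Il17rc and Il18r1. These 8 genes, of 54532 in the count table, were chosen by their symbols with their measured counts in these same libraries already known, Cd163l1 for its higher counts in ISM1-/- lungs. Their values in the 2 genotypes are therefore given as a description, and where the number of them past a threshold is given, it stands beside the share of all genes and supports nothing.

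The lungs came from untreated mice aged 2 months, perfused with cold saline to wash out blood, and each genotype had 3 libraries, numbered as replicates 1 to 3. WT mice were C57BL/6J animals from a commercial supplier, whereas the mice lacking isthmin-1 (ISM1, a secreted protein) were bred in the laboratory's own colony on that background, so the effect of genotype and that of the animals' origin cannot be told apart. RNA was taken from whole lung, and every value below is an average over all of its cells.

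Total counts lay between 37606133 and 42345042 per library. Transcripts of the targeted gene Ism1 were retained at 69.1 ± 5.72 CPM (counts scaled to the size of the library) in ISM1-/- lungs against 78.8 ± 2.88 in WT (SD, n = 3), so these counts are no check of the genotypes, which are taken from the labels. Summed CPM of 6 alveolar epithelial markers was similar in the 6 libraries, between 18370 and 19980, but Sftpc made most of it, at 11810 to 12790. Ager, Hopx and Aqp5 in the same list were lowest in WT replicate 1. Ager stood there at 1451 CPM against 1881 to 2022 in the other libraries, Hopx at 514 against 693 to 774 and Aqp5 at 241 against 272 to 319. Summed CPM of 8 heart muscle markers was 1572 in WT replicate 1 against 276 to 607 in the other libraries.

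IL-17A is made early in an infection by lymphocytes that leave the thymus already committed to it, above all gamma-delta T cells, and by Th17 cells and innate lymphoid cells. In these cells IL-23, through IL-23R, and IL-1 drive the production of the cytokine. The cytokine is read by epithelium and fibroblasts through receptor chains of the IL-17R family, which call in neutrophils by inducing chemokines. In the lung, such gamma-delta T cells are rare cells next to the epithelium, vessels and macrophages that make most of the RNA.

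Cd163l1 was the gene with the largest difference between genotypes among the 8. It lies on the forward strand of chr7:140218267-140231145 (GRCm38, Ensembl ENSMUSG00000025461). Its counts were 68, 92 and 79 in WT replicates 1, 2 and 3. In ISM1-/- replicates 1, 2 and 3 they were 247, 208 and 101. The ISM1-/- libraries were all above the WT libraries, but replicate 3 stood at 2.59 CPM, close to the highest WT value of 2.22, while replicates 1 and 2 stood at 5.81 and 5.48. The mean was 2.02 ± 0.207 CPM in WT and 4.63 ± 1.77 in ISM1-/- lungs (SD, n = 3), a fold of 2.29. The log2 fold change fitted by edgeR was 1.19 with a standard error of 0.279 and a 95% interval of 0.57 to 1.82, which includes changes under 2-fold. More Cd163l1 RNA per cell and more cells carrying it cannot be told apart in whole lung, and the same holds for every gene below.

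The study's own RT-PCR primers for Scart1 show which piece of the transcript identifies the gene against its neighbour 5830411N06Rik, or Scart2, a relative of Cd163l1 on the same chromosome. The primers and the product between them on the spliced mouse transcript were as follows, with the primer sites in capitals in the product.
Forward primer: TCCATTTGGCTGCCTAGAGAA
Reverse primer: CCAGGAGTCGTCACACACTG
Cd163l1 product: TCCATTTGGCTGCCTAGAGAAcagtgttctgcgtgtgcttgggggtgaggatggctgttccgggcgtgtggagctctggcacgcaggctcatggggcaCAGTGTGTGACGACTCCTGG
The product has 118 bases and lies within chr7:140228414-140228604 (GRCm38, forward strand). It was coding sequence in some of the transcripts that held both primers and not in others, the longest among them. In the transcript of 14 exons the forward primer spans the junction of exons 9 and 10, the first part ending at position 140228430 and the second starting at 140228504, and the reverse primer lies in exon 10. Each primer matched the transcripts of 1 gene exactly, and 6 of the 7 annotated Cd163l1 transcripts held both. The best site in 5830411N06Rik differed from the forward primer at 7 bases and from the reverse primer at 1 base.

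Counts of Cd163l1 and its relative were also separable in the sequencing data. Of 3572 stretches of 50 bases along the longest Cd163l1 transcript, 0 occurred in a transcript of another gene. 5830411N06Rik, at chr7:140247284-140300736, had counts of 36, 41 and 54 in WT and 52, 50 and 48 in ISM1-/- replicates 1, 2 and 3. Its genotypes overlapped, with a log2 fold change of 0.18 ± 0.233 (SE) and an adjusted p of 0.789 by edgeR's quasi-likelihood test.

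Sox13, the SoxD transcription factor that gamma-delta T cells need to become IL-17 producers and that other tissues also transcribe, had high counts. They were 4530, 5146 and 4090 in WT replicates 1, 2 and 3, and 5951, 5980 and 5084 in ISM1-/-. After scaling for library size, the lowest ISM1-/- library, at 130 CPM, lay above the highest WT library, at 124 CPM. The mean was 117 ± 9.61 CPM in WT and 143 ± 13.8 in ISM1-/- lungs, and the fitted log2 fold change was 0.29 with a 95% interval of 0.10 to 0.48. The gene lies on the reverse strand of chr1:133382303-133424377.

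Il23r encodes the IL-23-binding chain of the IL-23 receptor, which keeps type 17 lymphocytes active. Its counts were 10, 20 and 18 in WT replicates 1, 2 and 3 and 26, 31 and 23 in ISM1-/-. The genotypes did not overlap in CPM, with 0.482 as the highest WT value and 0.589 as the lowest ISM1-/- value, but they were only a few counts apart. The mean was 0.404 ± 0.121 CPM in WT and 0.673 ± 0.126 in ISM1-/- lungs. The fitted log2 fold change was 0.72 with a 95% interval of -0.04 to 1.48, which includes no change. Il23r lies on the reverse strand of chr6:67422932-67491855.

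Il17a, the cytokine itself, had 1 count in all 6 libraries together, in WT replicate 2. The count of 0 in the other 5 libraries allows up to 3 counts per library, or 0.0708 to 0.0798 CPM, and covers counting error only. At this depth no level and no difference between genotypes could be measured for Il17a, and no fold is given. The gene lies on the forward strand of chr1:20730905-20734496.

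The plot of CPM by library sets the 8 genes side by side.

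**Figure D1:**
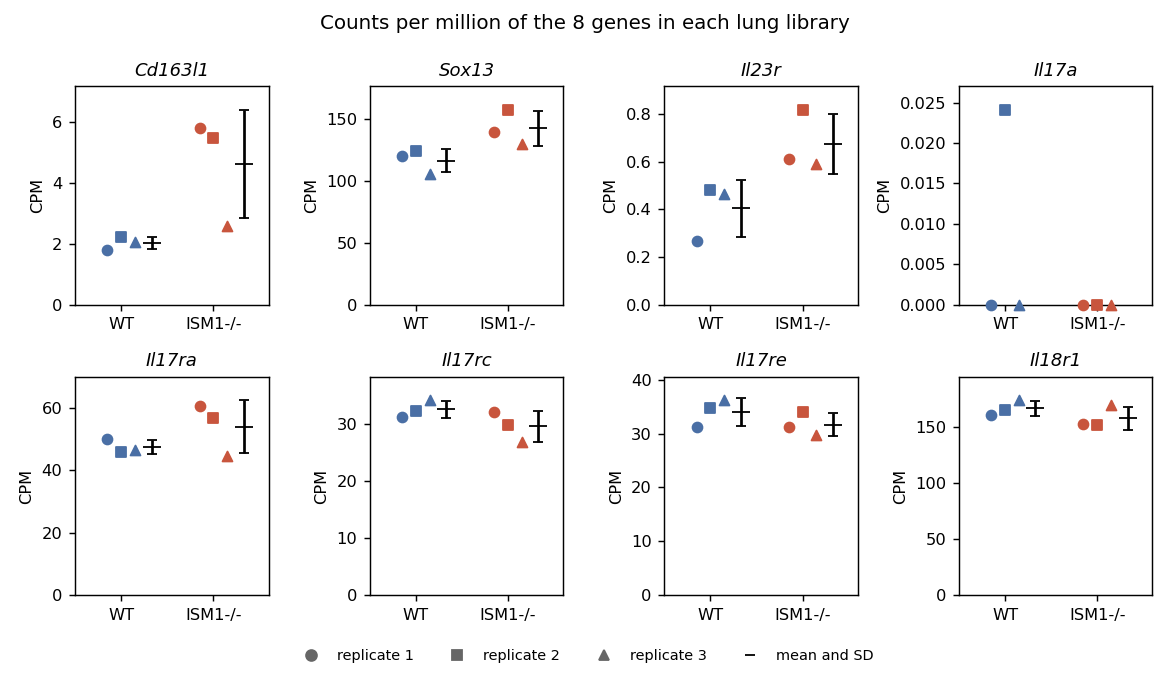
Library-scaled CPM (vertical axis, linear, from 0) of the 8 genes in WT and ISM1-/- lungs, 1 point per library with its replicate number as the symbol, and the mean with its SD over 3 libraries as bars (no bars for Il17a, with 1 count in all). Cd163l1, Sox13 and Il23r have ISM1-/- points all above the WT points, and ISM1-/- replicate 3 is the lowest of its group for every gene shown other than Il17a and Il18r1.

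The receptor chains were transcribed in all libraries at much higher levels, and their genotypes overlapped. Il17ra, the chain shared by the receptors of most IL-17 cytokines, had counts of 1882, 1898 and 1801 in WT replicates 1, 2 and 3 and 2578, 2152 and 1734 in ISM1-/-. Replicates 1 and 2 of ISM1-/- were above WT and replicate 3 was below it. The mean was 47.4 ± 2.21 CPM in WT and 53.9 ± 8.45 in ISM1-/- lungs, with a log2 fold change of 0.19 and a 95% interval of -0.05 to 0.42.

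Il17rc, which pairs with Il17ra to bind IL-17A and IL-17F, had counts of 1177, 1333 and 1318 in WT replicates 1, 2 and 3 and 1364, 1130 and 1043 in ISM1-/-. Replicate 1 of ISM1-/- lay among the WT libraries and the others were below them. The mean was 32.5 ± 1.46 CPM in WT and 29.5 ± 2.68 in ISM1-/- lungs, with a log2 fold change of -0.14 and a 95% interval of -0.31 to 0.04.

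Il17re, whose product pairs with Il17ra to bind the epithelial cytokine IL-17C, had counts of 1177, 1441 and 1400 in WT and 1328, 1292 and 1163 in ISM1-/- replicates 1, 2 and 3. The genotypes overlapped, at 34.0 ± 2.56 CPM in WT and 31.7 ± 2.16 in ISM1-/- lungs. The log2 fold change was -0.10 with a 95% interval of -0.28 to 0.07. Il17re and Il17rc follow each other on the forward strand of chromosome 6, at chr6:113458484-113470758 and chr6:113471427-113483140, and their spans do not overlap each other. Il17ra lies on the same chromosome at chr6:120463247-120487559.

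Il18r1, the IL-18-binding chain of the IL-18 receptor, carried by T cells, NK cells and other cells, had counts of 6064, 6861 and 6729 in WT and 6478, 5757 and 6610 in ISM1-/- replicates 1, 2 and 3. Replicate 3 of ISM1-/- lay among the WT libraries, and replicates 1 and 2 were below all of them. The mean was 167 ± 6.70 CPM in WT and 158 ± 10.04 in ISM1-/- lungs, with a log2 fold change of -0.08 and a 95% interval of -0.22 to 0.06. The gene lies on the forward strand of chr1:40465552-40500854. The intervals of all 4 receptor chains held 0 and reached no further than 0.42 on the log2 scale in either direction.

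**Figure D2:**
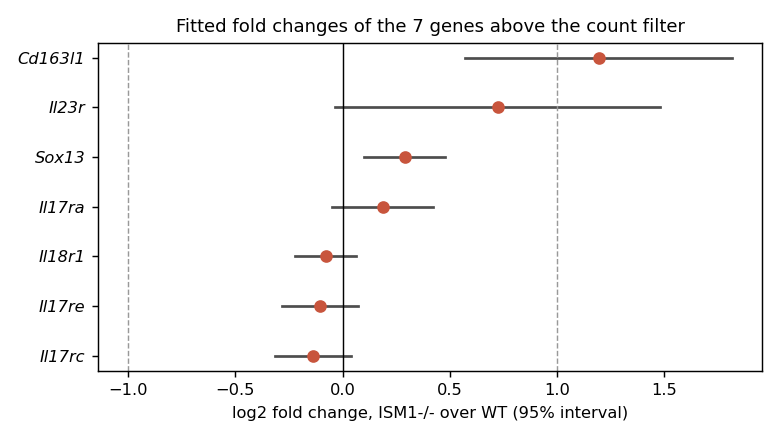
Fitted log2 fold change, ISM1-/- over WT (points), with its 95% interval (lines) for the 7 genes above the count filter; the solid line marks no change and the dashed lines a 2-fold change. Cd163l1 is the farthest to the right at 1.19, Il23r has the widest interval that also holds 0, and Il17ra, Il18r1, Il17re and Il17rc sit between -0.14 and 0.19.

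Of the 8 genes, 7 passed the filter of 0.5 CPM in at least 1 library and Il17a did not. A gene was counted as called at an adjusted p under 0.1 with at least a 2-fold change. Cd163l1 alone was called, and over all 18689 genes tested 0.284% were called higher and 0.284% lower in ISM1-/- lungs. Without a fold limit the count among the 8 stayed at 1 higher and 0 lower, against 1.38% and 3.34% of all genes. Genotypes did not overlap for 3 genes, all higher in ISM1-/- lungs, where 9.33% of all genes were higher without overlap and 12.3% lower. The median log2 fold change of the 7 genes was 0.19, against 0.00 over all genes. Since the genes were picked with this contrast known, nothing is read from these shares. The call of Cd163l1 was lost when any 1 library other than ISM1-/- replicate 3 was left out, with log2 fold changes between 0.996 and 1.27 in those fits and 1.48 without ISM1-/- replicate 3.

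Levels of different genes were compared per length, in the deposited FPKM, which are counts scaled by gene length and library total. From the highest down, the means over 6 libraries were 64.2 for Il18r1, 64.1 for Sox13, 29.1 for Il17rc, 15.7 for Il17re, 11.4 for Il17ra, 1.13 for Cd163l1, 0.216 for Il23r and 0.00343 for Il17a. Il18r1 and Sox13 did not differ beyond their spread, since Il18r1 ran from 60.2 to 69.2 FPKM and Sox13 from 52.5 to 78.1, with Il18r1 the higher in 4 of 6 libraries. Every other pair of neighbours kept its order in 6 of 6 libraries with ranges that did not overlap. The narrowest of these gaps was between Il17re, at 14.1 FPKM or more, and Il17ra, at 13.7 or less.

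Cd163l1 was thus 10.1-fold below Il17ra in the length-scaled mean and 5.22-fold above Il23r. These folds depend on the length used. Per kilobase of the longest transcript the means were 6.53 CPM for Il17ra, 0.918 for Cd163l1 and 0.216 for Il23r, so both folds were smaller. In WT lungs Cd163l1 ran from 0.614 to 0.753 FPKM and in ISM1-/- lungs from 0.866 to 1.98. Trdc, the constant gene of the T cell receptor delta chain, stood near it at 0.619 FPKM over 6 libraries, and 5830411N06Rik at 0.398. The receptor chains, Sox13 and Il18r1 were all above 9.8 FPKM in every library, far over the level of these gamma-delta T cell genes.

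**Figure D3:**
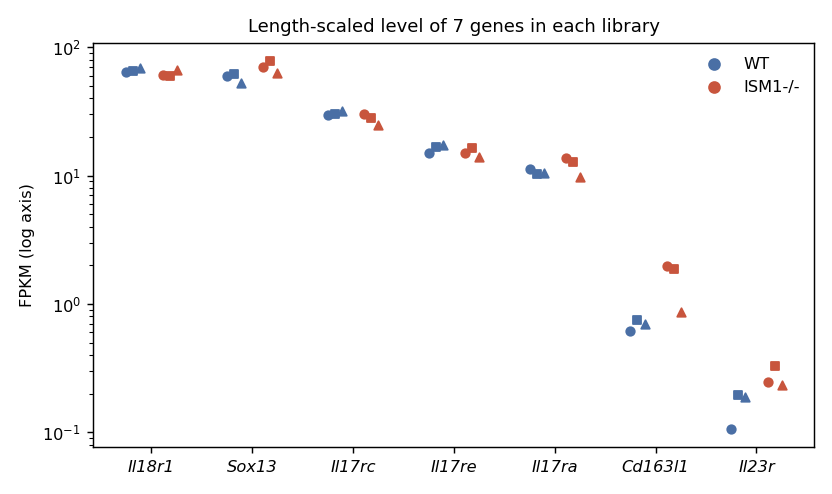
Deposited FPKM on a log axis of 7 genes in each library, ordered by their mean, with WT and ISM1-/- side by side and 1 point per library; Il17a is left out because 5 of its 6 values are 0. A wide step separates Il17ra, at 9.82 to 13.7 FPKM, from Cd163l1, at 0.614 to 1.98.

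Whether other genes of gamma-delta T cells moved with Cd163l1 was asked of their receptor segments. Trdc had counts of 61, 51 and 88 in WT and 172, 135 and 63 in ISM1-/- replicates 1, 2 and 3. Replicates 1 and 2 of ISM1-/- were above WT and replicate 3 was within it, and the log2 fold change of 0.85 ± 0.339 (SE) had an adjusted p of 0.249 by edgeR's quasi-likelihood test. The delta variable segment Trdv4 had 23, 12 and 12 counts in WT and 38, 30 and 30 in ISM1-/- lungs, with no overlap, a log2 fold change of 1.02 ± 0.348 and an adjusted p of 0.174. The gamma constant segments Tcrg-C1, Tcrg-C2 and Tcrg-C4 overlapped between genotypes, at log2 fold changes of 0.47, -0.19 and -0.31. The table held 23 gamma and delta segments, of which 5 could be tested and 0 passed an adjusted p under 0.1. Trdv4 alone passed without WT replicate 1, with an adjusted p of 0.0871. Trdc passed under 2 of the alternatives, with an adjusted p of 0.0405 without a filter on low counts and 0.0393 without ISM1-/- replicate 3. The gamma constant segments are related copies, so reads may have been split between them.

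Counts of Cd163l1 were set against those of Trdc within each library. The ratio of Cd163l1 to Trdc counts was 1.11, 1.80 and 0.898 in WT and 1.44, 1.54 and 1.603 in ISM1-/- replicates 1, 2 and 3. The ISM1-/- ratios lay inside the WT range, so the difference in Cd163l1 per count of Trdc was within the spread of the libraries.

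Markers of B cells, NK cells and neutrophils were higher in the same libraries as Cd163l1, while those of alveolar macrophages were not. In ISM1-/- replicates 1, 2 and 3, Cd163l1 stood at 2.87, 2.71 and 1.28 times its WT mean. Summed B cell markers stood at 1.92, 1.46 and 1.08 times theirs, NK cell markers at 2.18, 1.65 and 1.54, and neutrophil markers at 1.59, 1.46 and 1.17. The neutrophil sum includes S100a8 and S100a9, and without both genes its genotypes overlapped. Summed T cell markers, at 1.47, 1.22 and 0.973, overlapped the WT range of 0.72 to 1.42. Summed alveolar macrophage markers overlapped too, at 592 to 658 CPM in WT and 538 to 630 in ISM1-/- lungs. Their median log2 fold change was -0.129. Summed markers of group 2 innate lymphoid cells also overlapped, at 92.6 to 102 CPM in WT and 92.3 to 104 in ISM1-/- lungs. Most of that sum was Rora, at 62.7 to 73.9 CPM, and Gata3, at 12.9 to 18.0, so it says little of the markers with low counts. Replicate 1 was the highest and replicate 3 the lowest of the ISM1-/- libraries for Cd163l1, Trdc and all 4 marker sums. By edgeR's quasi-likelihood test at an adjusted p under 0.1, 6 of 8 NK cell, 3 of 7 B cell and 5 of 9 neutrophil markers tested were higher. Of 14 T cell and 8 alveolar macrophage markers tested 0 were higher, and none of all these markers was lower. Over all genes 1.38% were higher and 3.34% lower at this threshold. The lists were chosen with earlier results known, so nothing is read from these shares. Without ISM1-/- replicate 3, 7 of the B cell markers passed, and without any other library 0 did. The NK cell markers that passed were 7 without WT replicate 1 or ISM1-/- replicate 3 and 0 without any other library, and the neutrophil markers ran from 2 to 7, with 3 without WT replicate 1. The part of these cells in the difference of Cd163l1 was not tested.

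**Figure D4:**
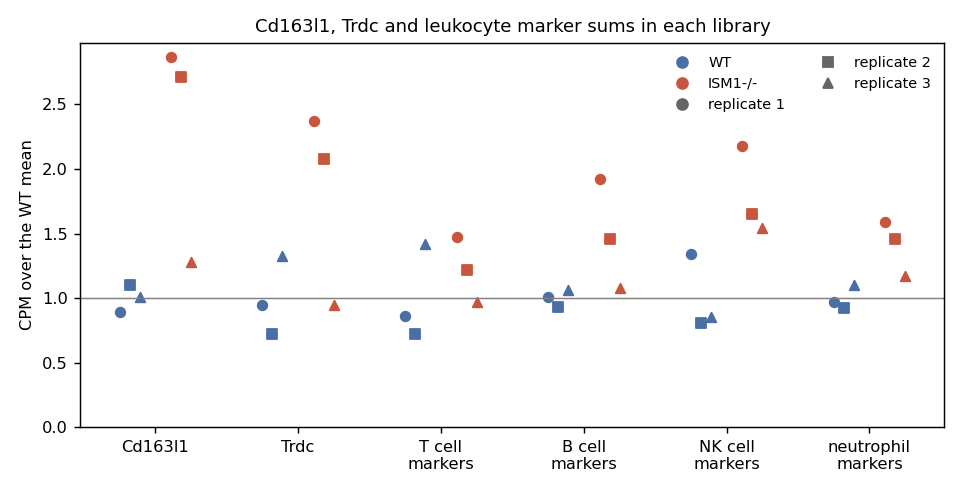
CPM of Cd163l1 and Trdc and summed CPM of T cell, B cell, NK cell and neutrophil markers in each library, each divided by its WT mean (vertical axis, linear, from 0), 1 point per library with the replicate number as the symbol. In all 6 columns ISM1-/- replicate 1 is the highest and replicate 3 the lowest ISM1-/- point, and for Trdc and the T cell markers replicate 3 falls among the WT points. The neutrophil sum includes S100a8 and S100a9, and without both genes its genotypes overlap.

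The rest of the pathway was read from lists of 154 genes other than the 8, of which 142 were in the table and 108 were tested. By edgeR's quasi-likelihood test 2 of the 108 were called higher and 0 lower, against 0.284% and 0.284% of all genes. Without a fold limit 8 were higher and 3 lower at an adjusted p under 0.1, against 1.38% and 3.34% of all genes. The median log2 fold change of the 108 was 0.085, against 0.00 over all genes. The lists were chosen with earlier results of these data known, so nothing is read from these shares or from the counts per list below. Of the 11 genes, S100a8 and S100a9 passed whichever of the 6 libraries was dropped. The other 9 passed in 1 to 4 of those 6 fits, and 0 of them passed without WT replicate 2.

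Among 18 genes listed as regulators and surface receptors of type 17 lymphocytes, many of which other cells also transcribe, 5 rose and 0 fell. Il7r, the receptor of the survival cytokine IL-7, had counts of 539, 553 and 539 in WT and 860, 651 and 773 in ISM1-/- replicates 1, 2 and 3, with a log2 fold change of 0.46 ± 0.0867 (SE) and an adjusted p of 0.0298. Icos, a costimulatory receptor of activated T cells and innate lymphoid cells, had 96, 95 and 97 counts in WT and 180, 134 and 165 in ISM1-/- lungs, at 0.71 ± 0.151 and an adjusted p of 0.0446. Cxcr6, a chemokine receptor of lymphocytes that stay in tissue, had 90, 107 and 107 against 185, 139 and 160, at 0.65 ± 0.148 and an adjusted p of 0.0539. For these 3 genes every ISM1-/- library was above every WT library, and replicate 3 was not the lowest of its group.

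Blk, a kinase of B cells that gamma-delta T cells making IL-17 also use, had 354, 365 and 381 counts in WT and 855, 601 and 417 in ISM1-/- replicates 1, 2 and 3, with a log2 fold change of 0.74 and an adjusted p of 0.0817. Its order over the ISM1-/- libraries was that of Cd163l1 and of the B cell markers. Podxl, a sialomucin abundant in vessel lining, rose by 0.32 ± 0.0682 with an adjusted p of 0.0466, at 666 ± 46.7 CPM against 536 ± 25.5 in WT. That level is far above those of Cd163l1 and Trdc, and its rise cannot be assigned to lymphocytes. Ccr6, the chemokine receptor that marks many type 17 cells, had 87, 75 and 90 against 212, 131 and 77 counts, with an adjusted p of 0.284. Stat3 and Ahr, the most abundant of the list beside Podxl, had log2 fold changes of 0.00 and 0.11 that did not pass. With 1 library left out the number of genes of this list that passed ran from 0, without WT replicate 2, to 7, without ISM1-/- replicate 3.

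Of the other IL-17 cytokines only Il17d could be tested. It had 159, 215 and 215 counts in WT and 278, 215 and 173 in ISM1-/- replicates 1, 2 and 3, and its adjusted p was 0.730. Il17f, the close relative of Il17a, had 0, 1 and 2 counts in WT and 3, 0 and 1 in ISM1-/- lungs. Il17c had 0, 0 and 2 against 3, 2 and 8, and Il22, another cytokine of these cells, was at 0 in all 6 libraries. The cytokines of type 17 lymphocytes were thus at or near 0 in both genotypes.

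Among 27 receptor chains, adaptors and downstream factors of IL-17 signalling, 0 rose and 2 fell, the transcription factors Cebpb and Cebpd, which act late in the IL-17 response and in many other responses. Cebpb had 4287, 4963 and 3818 counts in WT and 3530, 3548 and 2473 in ISM1-/- replicates 1, 2 and 3, and fell by 0.47 on the log2 scale with an adjusted p of 0.0967. Cebpd fell by 0.87 with an adjusted p of 0.0966, but its WT libraries were spread widely, at 2226, 5407 and 4767 counts against 2420, 2005 and 2410, and without WT replicate 1 it fell by 1.15. By DESeq2's Wald test Cebpd did not pass, with an adjusted p of 0.159, while Cebpb did, at 0.00598. Adipocyte markers and some fibroblast markers were also lower in ISM1-/- lungs, as given below. The part of those cells in the falls of Cebpb and Cebpd was not tested. Srsf1, Nfkb1 and Tab2, the most abundant of this list, had log2 fold changes of 0.11, 0.10 and 0.06 that did not pass.

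Of 18 tested genes that IL-17 induces in epithelium and fibroblasts, 2 rose. These were S100a8 and S100a9, which are also the main cytosolic proteins of neutrophils and stand in the neutrophil list too. S100a8 had 178, 190 and 242 counts in WT and 852, 487 and 418 in ISM1-/- replicates 1, 2 and 3, a log2 fold change of 1.49 ± 0.224 (SE) with an adjusted p of 0.0163. S100a9 had 375, 562 and 561 against 2063, 1148 and 1006 counts, at 1.46 ± 0.222 with the same adjusted p. Of the other 7 neutrophil markers tested, Cxcr2, Csf3r and Ngp also passed higher, while Retnlg, Mmp8, Mmp9 and Ltf did not pass. The summed level of neutrophil markers was higher in every ISM1-/- library, but it includes both genes and its separation rests on them. Without both genes the sum of ISM1-/- replicate 3 fell within the WT range. S100a9 alone was 48.5, 30.3 and 25.8 of the summed 180.5, 166.2 and 132.7 CPM in ISM1-/- replicates 1, 2 and 3. In WT it was 9.95, 13.5 and 14.5 of 110.5, 105.4 and 124.7. The part of neutrophils in these values was not tested.

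The other 16 genes of that list did not pass. The chemokine Ccl20, the ligand of CCR6, had 9, 3 and 0 counts in WT and 32, 12 and 19 in ISM1-/- lungs, with an adjusted p of 0.139, and Cxcl5, a neutrophil chemokine, had 9, 6 and 5 against 22, 13 and 14, with an adjusted p of 0.175. The eosinophil chemokine Ccl11 had 94, 87 and 99 counts in WT and 60, 51 and 74 in ISM1-/- lungs, a log2 fold change of -0.62 with an adjusted p of 0.159. The airway genes Muc5b, Lcn2 and Pigr, the most abundant of the list, had log2 fold changes of -0.18, 0.02 and -0.01. The epithelial defensins Defb3 and Defb4 were at 0 in all libraries.

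Among 23 tested ligands and receptors of the IL-23, IL-1 and IL-18 inputs, 1 rose and 0 fell. Il1b, the IL-1 cytokine that acts with IL-23 on gamma-delta T cells, had 219, 199 and 222 counts in WT and 318, 395 and 270 in ISM1-/- replicates 1, 2 and 3, at 0.60 ± 0.166 with an adjusted p of 0.0997, just inside the threshold. Il18rap, the partner chain of Il18r1, had 621, 454 and 400 against 792, 622 and 616 counts, with an adjusted p of 0.222, and its ligand gene Il18 had a log2 fold change of -0.01. The partner chain of Il23r, Il12rb1, had 49, 31 and 49 against 83, 59 and 45 counts, with an adjusted p of 0.448. Jak2, Tgfb1 and Il6ra, the most abundant here, had log2 fold changes of 0.00, 0.10 and 0.06.

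Relatives of Cd163l1 are the other genes with scavenger receptor cysteine-rich domains. Of 15 tested, 0 rose, and Scara5, a ferritin receptor of stromal cells, fell by 0.84 with an adjusted p of 0.0371, from 703, 645 and 639 counts in WT to 292, 369 and 461 in ISM1-/- replicates 1, 2 and 3. Markers of some other non-immune cells were lower in the same libraries, where 3.34% of all genes were lower at the same threshold. Of these markers 2 of 7 fibroblast and smooth muscle, 7 of 7 adipocyte and 4 of 8 airway epithelial markers passed it. Their summed CPM did not overlap between genotypes, at 1730 to 1823 in WT against 1477 to 1607 in ISM1-/- lungs for the fibroblast and smooth muscle list, 91.0 to 126 against 25.7 to 58.4 for the adipocyte list and 21390 to 22970 against 13830 to 17550 for the airway list. Most of the airway sum was Scgb1a1, at 20350 to 21910 CPM in WT and 12940 to 16620 in ISM1-/- lungs. Of 6 alveolar epithelial markers 0 passed lower, and of 8 heart muscle markers 1 did. The part of all these cells in the difference of Scara5 was not tested. The lymphocyte members Cd5 and Cd6 had log2 fold changes of 0.70 and 0.64 with adjusted p of 0.218 and 0.162, and the macrophage receptor Cd163 had -0.23 with 0.538. Lgals3bp, Loxl2 and Loxl3, the most abundant of the family, had -0.05, 0.16 and 0.11. The SoxD relatives of Sox13, Sox5 and Sox6, had 0.10 and -0.29, with adjusted p of 0.749 and 0.332.

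**Figure D5:**
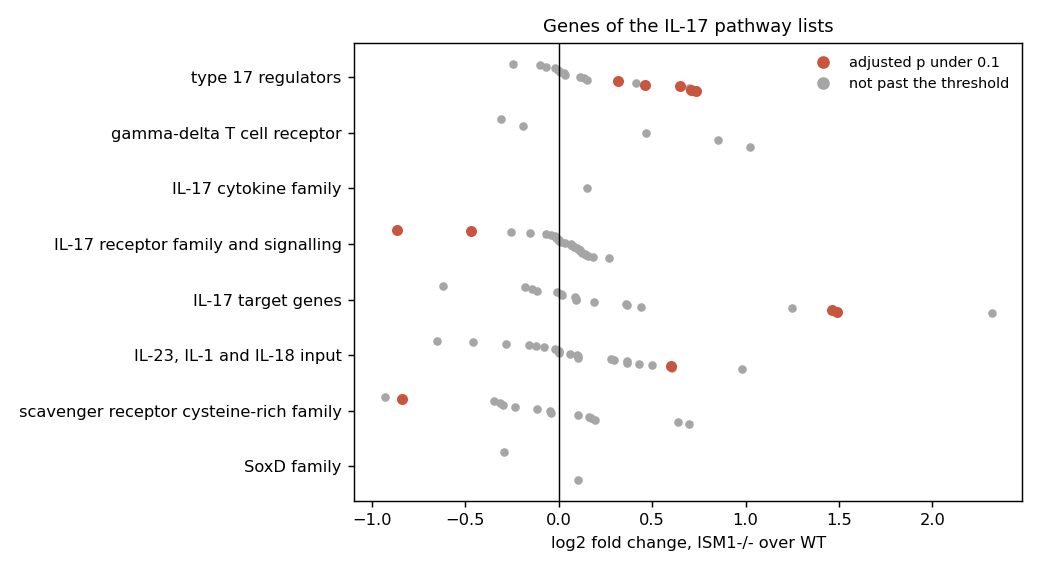
Log2 fold change, ISM1-/- over WT, of every tested gene of the pathway lists other than the 8 chosen genes, 1 row per list, with genes at an adjusted p under 0.1 in red and the others in grey. Red points to the right are 5 genes of the type 17 regulator list, with Podxl of vessel lining among them, S100a8 and S100a9 at 1.49 and 1.46, and Il1b. Red points to the left are Cebpd, Cebpb and Scara5.

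Genes whose pattern over the 6 libraries was most like that of Cd163l1 were ranked by Pearson's r of log2 CPM among the 15875 genes that averaged 1 CPM or more. The first 5 were A730015C16Rik at 0.989, Gm43863 at 0.986, Vps26b at 0.986, Hdgfl2 at 0.986 and N4bp3 at 0.982. With 6 libraries, 264 genes had an r above 0.9, and each of these values includes the difference between genotypes. After the mean of each genotype was subtracted, the listed genes most like Cd163l1 were Traf4 at 0.995, Sftpc at 0.960, Arg1 at 0.952, Mzb1 at 0.931 and Rela at 0.924, while Trdc stood at 0.79, Il17ra at 0.87 and Sox13 at 0.556. These are descriptions over libraries that also share depth and cell makeup.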

How the data were processed

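RNA-seq of 6 whole lungs was used. The authors filtered the read pairs, mapped them to GRCm38 with STAR and deposited raw counts per gene without normalization; counting program, annotation release and strand setting are not given in the sources used here. The deposited FPKM values divide counts by the authors' library total and by a gene length, which equalled the mean GENCODE M21 transcript length within 1% for 95.8% of the 17957 genes with at least 10 counts in every library. Genotypes and replicate numbers came from the labels. Each library was taken as 1 mouse, which the labels do not state. The p-values set the difference between genotypes against the spread of libraries within a genotype.

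The counts were fitted with edgeR 4.0.16 under R 4.3.3, using every gene that reached 0.5 CPM in any 1 library, TMM scaling, a quasi-likelihood test of genotype and Benjamini-Hochberg adjustment over 18689 genes. CPM are TMM-scaled, and fold changes are ISM1-/- over WT. DESeq2 1.42.0, other filters and scalings, a replicate block and leaving out each library were alternatives. Named were the 8 genes, listed genes with an adjusted p under 0.1, the up to 3 most abundant of each list, relatives, receptor segments, the targeted gene and the most similar patterns; further listed genes (such as Ccl20, Cxcl5, Ccl11 and Ccr6) were chosen after their values were seen. The 8 genes and all lists were chosen with earlier results of these data known. Some listed genes are not reported here. Primer sequences came from the study's primer table.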

Additional observations from a re-analysis of the deposited data

How the results depend on the processing

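The log2 fold change of Cd163l1 was 1.13 to 1.20 under DESeq2, another scaling, 3 other filters and a replicate block. With each library left out it ran from 0.996 to 1.48, and the number of the 8 genes called from 0 to 1, being 1 only without ISM1-/- replicate 3; these fits have 1 library fewer. In the main fit the number called at an adjusted p under 0.05 was 0. Cd163l1 was under 0.05 by DESeq2, without a filter on low counts, with the replicate block and without ISM1-/- replicate 3. Sox13 was under 0.05 in the same fits, with less than a 2-fold change. Il17ra was under 0.05 only without ISM1-/- replicate 3. No direction among the 7 tested genes reversed. Of the pathway list genes, 2 to 5 were called with 1 library left out, and 11 with no fold limit. The number of all genes called was 106, and outside 1.5 times that with no filter (293), with a mean above 2 CPM (37) and with libraries left out (31 to 188). Samples of the same replicate number did not deviate together (correlations of -0.0334, 0.0348 and 0.0367), and the replicate block, which called 130 genes, kept Cd163l1 at 1.13 with 1 of the 8 genes called and called 3 pathway list genes, against 2 without it. Of the 8 ranks by level, 6 to 8 were kept with 1 library left out, Il18r1 and Sox13 changing places, and 6 with the length column of the count table in place of the FPKM length, which put Il17ra above Il17re; that alternative was chosen after seeing the data. Depth limits Il17a, Il23r and most receptor segments, with counts of 0 to 38 for Il17a, Il23r and Trdv4.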

Other observations

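NK cells, which share the IL-18 receptor and the transcription factor Eomes with other cytotoxic lymphocytes, had higher marker levels in ISM1-/- lungs, and 6 of their 8 markers passed edgeR's quasi-likelihood test at an adjusted p under 0.1. Over all genes 1.38% were higher at this threshold. Gzma, a granule protease, had 885, 582 and 543 counts in WT and 1678, 1088 and 1110 in ISM1-/- replicates 1, 2 and 3, with a log2 fold change of 0.91 ± 0.199 (SE) and an adjusted p of 0.0481. The receptor Klrb1c had 164, 134 and 113 against 282, 246 and 214 counts, at 0.83 ± 0.168 with an adjusted p of 0.0375. Ncr1 and Nkg7 overlapped between genotypes and did not pass, with adjusted p of 0.201 and 0.192. With 1 library left out the number of NK cell markers that passed was 7 without WT replicate 1 or ISM1-/- replicate 3, and 0 without any of the others.

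Markers of group 2 innate lymphoid cells, another resident lymphocyte of the lung, were higher in 1 of 6 tested, against 1.38% of all genes. Klrg1, which NK and T cells also carry, rose from 73, 39 and 41 counts in WT to 135, 101 and 88 in ISM1-/- lungs, with a log2 fold change of 1.05 ± 0.278 (SE) and an adjusted p of 0.0898, a call that was lost without WT replicate 2 or 3 or ISM1-/- replicate 1 or 2. Gata3, the factor that defines these cells, had a log2 fold change of 0.02 with an adjusted p of 0.976, Areg had -0.68 with 0.306, and their cytokine genes Il13 and Il5 had 0 to 11 counts in each library.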
